A study of Mus musculus with 4 samples.

Results

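The genes described here act at the inner face of the vessel wall, where blood clotting and the attachment of leukocytes are controlled. They are 9 genes taken by symbol, of 55401 in the deposited count files: Icam1, Vcam1, Sele and Selp for adhesion, Vwf and F3 for clot formation, Thbd and Procr for the protein C pathway, and Plat for clot removal. All 9 were found in the files, and 7 had enough counts to be tested. Sele and Selp had too few.

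The samples are from the semimembranosus, a hamstring muscle, of C57BL/6 mice 8 weeks old. In the IVS_diosmin group (2 libraries) mice with iliac vein stenosis were given diosmin by gavage at 40 mg per kg per day, and in the IVS group (2 libraries) mice with the same stenosis were given saline by gavage. Diosmin is a flavonoid taken for chronic vein disease. All mice of both groups had the left external iliac vein tied over a 30-gauge needle, so no library shows these genes without a narrowed vein. The labels do not say how long treatment lasted, whether a replicate is 1 mouse, or whether the muscle came from the tied side. If the replicates are not separate animals, the p-values reflect spread that may be technical.

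Resting endothelium keeps blood fluid and leukocytes moving. Thrombomodulin, the product of Thbd, binds thrombin and turns it towards activating protein C, which is held at the surface by its receptor, the product of Procr. Tissue factor, encoded by F3, starts coagulation when blood meets it, and von Willebrand factor, encoded by Vwf, tethers platelets to an injured wall. In inflammation, selectins slow leukocytes down, and ICAM-1 and VCAM-1 then hold them by their integrins. The comparison of the groups asks how these genes stand in muscle of mice with a narrowed iliac vein when diosmin is given.

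Gene counts summed to 13897740 and 14539304 in IVS_diosmin replicates 1 and 2, and to 13056650 to 15324354 in the IVS libraries. With 13533 genes tested, 2.96% passed the threshold in either direction (edgeR quasi-likelihood test, Benjamini-Hochberg adjusted p under 0.05), and none of the 7 tested members did. At an unadjusted p under 0.05 stood 2 members, Thbd and Icam1, where 16.8% of all genes tested stood, and both had lower values with diosmin. DESeq2 and limma-voom called no member either. Of the 7, 2 had lower values and 5 had higher values, with a median log2 fold change of 0.11, against 0.01 over all genes tested. Levels below are CPM (read counts scaled to the same library size, with TMM normalisation).

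**Figure D1:**
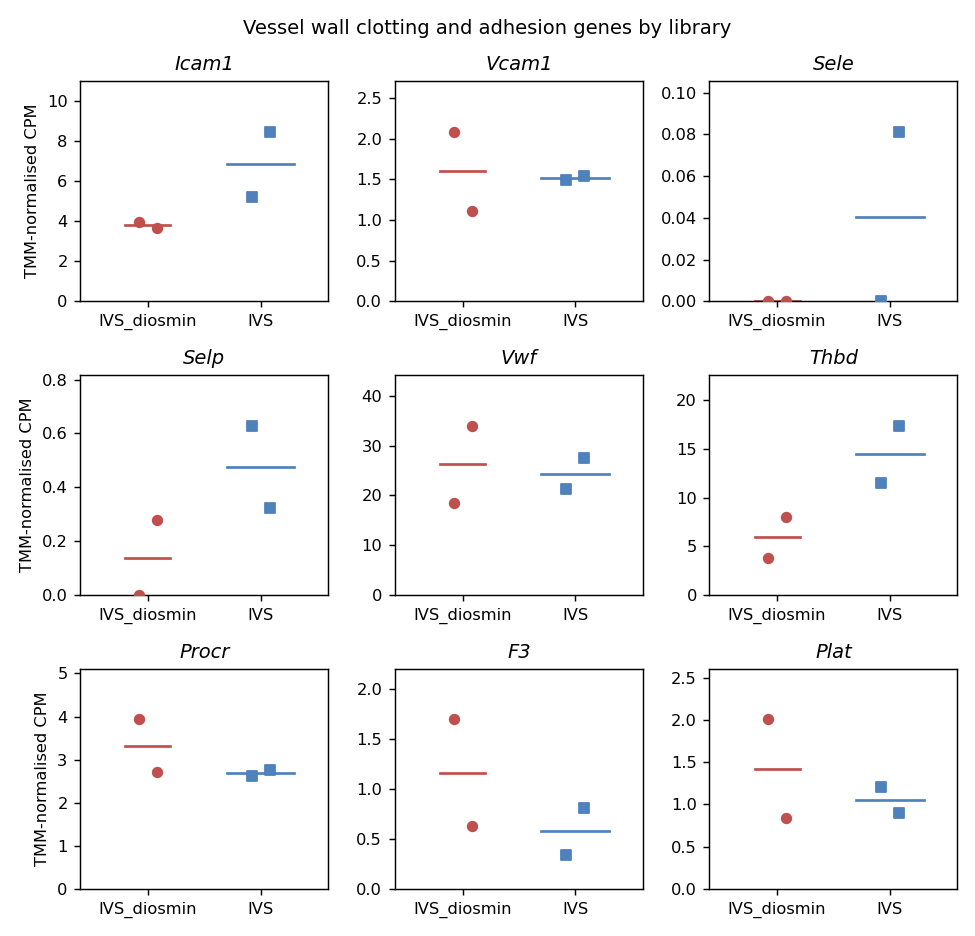
TMM-normalised CPM of each member (vertical axis, own scale for each gene) in the 2 IVS_diosmin libraries (red circles) and the 2 IVS libraries (blue squares), with group means as lines. Thbd and Icam1 lie lower in both IVS_diosmin libraries than in either IVS library, as do 24.1% of all genes tested. Vwf runs from 18.4 to 34.0 CPM within the IVS_diosmin group alone.

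Promoter sequence was found in RefSeq for 5 of the 9 members (Icam1, Sele, Selp, Procr and F3, build GRCm38.p6), read from 250 bases before to 50 after the start. Short binding cores of endothelial regulators were searched on both strands: CCGGAA, which ETS factors such as Erg can bind, and CACCC, which KLF factors such as Klf2 can bind. The capitals in the first sequence mark CCGGAA or its reverse complement, and in the second CACCC or its reverse complement. Both are on the plus strand, run 5′ to 3′ and end at the last base before the start, at chr9:21015690-21015939 for Icam1 and chr3:121723287-121723536 for F3. They are shown because they held the most matches of each core among the 5.
Icam1: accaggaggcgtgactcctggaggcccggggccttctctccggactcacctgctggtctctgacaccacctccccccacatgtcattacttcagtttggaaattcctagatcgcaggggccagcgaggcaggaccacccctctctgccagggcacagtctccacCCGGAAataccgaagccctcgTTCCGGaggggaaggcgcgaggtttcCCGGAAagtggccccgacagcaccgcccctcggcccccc
F3: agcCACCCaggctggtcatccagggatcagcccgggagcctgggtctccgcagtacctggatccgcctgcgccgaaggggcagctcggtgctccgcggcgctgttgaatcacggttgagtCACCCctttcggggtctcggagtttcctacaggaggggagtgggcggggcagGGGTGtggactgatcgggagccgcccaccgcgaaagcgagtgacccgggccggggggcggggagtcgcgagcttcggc
Icam1 held 3 ETS cores, all before the start, and the other 4 promoters held none. At least 1 ETS core occurred in 14.9% of the 32851 promoters in the table, and 3 or more in 0.852%. F3 held 4 KLF cores, of which 3 lie before the start, Icam1 held 3, Selp and Procr 1 each and Sele none, in a table where 57.5% of promoters held at least 1, 9.35% held 3 or more and 3.1% held 4 or more. The first ETS core of Icam1 overlaps a KLF core by 2 bases. The 10-letter kappaB consensus of NF-kB had no match in the 5, and 8.46% of all promoters held 1 or more. Sites that depart from this consensus were not searched, so the lack of a match does not show the lack of a kappaB site. A match here is a description of letters and not of a bound site.

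Thbd, the thrombin receptor of the anticoagulant pathway, was the member with the smallest p. It had 49 and 116 counts in IVS_diosmin replicates 1 and 2, and 202 and 214 counts in IVS replicates 1 and 2. As levels these were 3.78 and 8.05 CPM with diosmin, against 11.5 and 17.4 CPM in IVS. The groups did not overlap, and IVS_diosmin replicate 1 was the lowest library. Among all genes tested, 24.1% had both IVS_diosmin libraries below both IVS libraries, so the order alone does not set Thbd apart. The mean was 5.92 ± 3.02 CPM with diosmin and 14.5 ± 4.1 CPM in IVS (SD, n = 2 each). The log2 fold change was -1.28 ± 0.37 (SE), with a 95% interval of -2.08 to -0.47 and an adjusted p = 0.0941 (edgeR). Thbd therefore missed the threshold over all genes. Its call turned on single libraries and settings: the adjusted p was 0.0257 without IVS_diosmin replicate 2 (log2 -1.94), 0.399 without IVS_diosmin replicate 1 (-0.84) and 0.471 without IVS replicate 2 (-0.96), and ran from 0.00184 to 0.471 over all alternatives tried. It had 1 exon and no overlap with another gene's exons (mm10 chromosome 2, 148404466 to 148408188, minus strand), so its reads had no partner to be shared with.

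Procr, the protein C receptor that works beside thrombomodulin, gave no such difference. Its counts were 51 and 39 in the IVS_diosmin libraries, against 46 and 34 in the IVS libraries, or 3.93 and 2.71 CPM against 2.63 and 2.76 CPM. The groups overlapped, and IVS_diosmin replicate 1 stood above the other 3 libraries, which lay close together. The log2 fold change of Procr was 0.30 ± 0.44 (SE, adjusted p = 0.805, edgeR), with an interval from -0.66 to 1.25, wide enough to hold a change in either direction. Within each library, Thbd had 0.961 and 2.97 times the counts of Procr with diosmin, and 4.39 and 6.29 times in IVS. This ratio of the pair, chosen after its values were seen, did not overlap between groups, was lowest in IVS_diosmin replicate 1 and was not tested. Thbd alone did not overlap either, and how many genes would share this order in a ratio to Thbd was not computed.

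Vwf, the platelet-tethering multimer that endothelium stores, was the member with the most reads. It had 239 and 490 counts in IVS_diosmin replicates 1 and 2, against 371 and 338 counts in IVS replicates 1 and 2. Its levels were 18.4 and 34.0 CPM with diosmin and 21.2 and 27.5 CPM in IVS, so both extremes of the 4 libraries were diosmin libraries. IVS_diosmin replicate 1 held 0.542 times the Vwf level of replicate 2 (95% exact conditional interval 0.462 to 0.634, counting error only). Means were 26.2 ± 11.02 CPM with diosmin and 24.3 ± 4.4 CPM in IVS (SD, n = 2 each), and the log2 fold change was 0.11 ± 0.28 (SE, adjusted p = 0.896, edgeR). Its interval, -0.51 to 0.74, was the narrowest among the members. The direction of Vwf changed with the library left out, to -0.41 without IVS_diosmin replicate 2 and -0.07 without IVS replicate 1, while the adjusted p stayed at 0.489 or above in every alternative tried.

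F3, which starts coagulation and is made mainly by cells around vessels rather than resting endothelium, had few reads. Its counts were 22 and 9 in the IVS_diosmin libraries and 6 and 10 in the IVS libraries, or 1.70 and 0.625 CPM against 0.343 and 0.813 CPM. The groups overlapped, and IVS_diosmin replicate 1 was the highest library. The log2 fold change of 1.02 ± 0.87 (SE, adjusted p = 0.623, edgeR) had an interval from -0.86 to 2.91. Without IVS_diosmin replicate 1 the value was 0.14, so most of it rested on that library.

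Plat, tissue plasminogen activator, which endothelium releases to dissolve clots, had 26 and 12 counts in the IVS_diosmin libraries, against 21 and 11 counts in the IVS libraries. Its levels were 2.00 and 0.833 CPM with diosmin and 1.20 and 0.894 CPM in IVS, again with IVS_diosmin replicate 1 highest and the groups overlapping. The log2 fold change of Plat was 0.42 ± 0.71 (SE, adjusted p = 0.836, edgeR), and it turned to -0.33 without IVS_diosmin replicate 1.

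Icam1, the ligand of leukocyte beta-2 integrins, was the adhesion gene with the most reads. It had 51 and 53 counts in the IVS_diosmin libraries, against 91 and 104 counts in the IVS libraries. As levels these were 3.93 and 3.68 CPM with diosmin and 5.20 and 8.45 CPM in IVS. The groups did not overlap, the IVS_diosmin libraries lay close together, and IVS replicate 2 was the highest. As for Thbd, this order does not set Icam1 apart, since 24.1% of all genes tested shared it. The mean of 3.81 ± 0.18 CPM with diosmin stood beside 6.83 ± 2.30 CPM in IVS (SD, n = 2 each), a log2 fold change of -0.83 ± 0.37 (SE) with an interval of -1.64 to -0.02. With an adjusted p = 0.281 (edgeR; 0.188 to 0.784 over the alternatives), Icam1 did not pass, and its log2 fold change was -0.46 without IVS replicate 2. An antisense gene, Gm47079, covers 511 of its 4360 exonic bases (mm10 chromosome 9, 21015985 to 21028817), with 15 and 39 counts of its own in the IVS_diosmin libraries and 25 and 51 in the IVS libraries. The strand setting of the counting is not given in the sources used here, so reads of the pair may not be told apart.

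Vcam1, the ligand of the integrin alpha-4 beta-1, is also a marker of satellite cells, the stem cells of muscle. It had 27 and 16 counts in the IVS_diosmin libraries and 26 and 19 in the IVS libraries, or 2.08 and 1.11 CPM against 1.49 and 1.54 CPM. Both extremes were again diosmin libraries, and the groups overlapped. The log2 fold change of Vcam1 was 0.07 ± 0.63 (SE, adjusted p = 0.974, edgeR), with an interval from -1.29 to 1.43 and a direction that changed in 3 of the alternatives. An opposite gene, Gm43109, shares 61 of its exonic bases and held at most 2 counts in a library.

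The selectins were at or near 0. Sele, the selectin that endothelium makes on cytokine exposure, had 0 counts in both IVS_diosmin libraries and 0 and 1 in IVS replicates 1 and 2. A count of 0 allows up to 3 counts, or 0.208 to 0.231 CPM in the IVS_diosmin libraries and 0.172 CPM in IVS replicate 1, so Sele was not detectable at this depth and no fold is given. Selp, the selectin stored with von Willebrand factor in endothelium and in platelet granules, had 0 and 4 counts in the IVS_diosmin libraries, against 11 and 4 counts in the IVS libraries. Summed over libraries its level with diosmin was 0.290 times that in IVS, with an exact conditional 95% interval of 0.0701 to 0.911 for counting error only. Selp was highest in IVS replicate 1, where Gm16548 on the opposite strand, which shares 438 of its exonic bases, held 6 counts and the other 3 libraries 0. In the fit with no filter on low counts its adjusted p was 0.798 (edgeR).

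**Figure D2:**
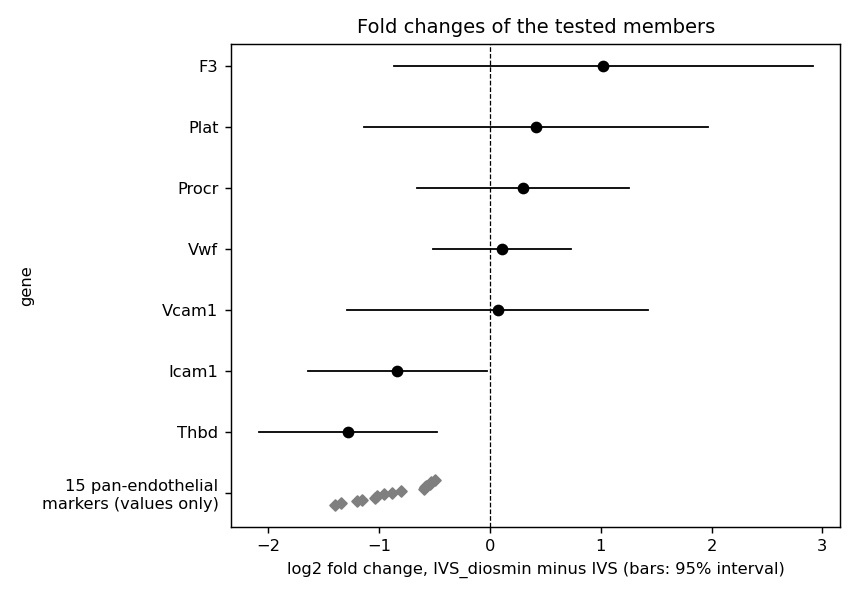
Log2 fold change (horizontal axis, IVS_diosmin minus IVS) of the 7 tested members with 95% intervals from the edgeR fit (black), and of 15 pan-endothelial markers as values only (grey diamonds). The intervals of 5 members span 0; those of Thbd and Icam1 do not, though neither gene passed after adjustment, and all 15 endothelial markers lie below 0.

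Levels between the members were compared per length, as CPM per kilobase of annotated exon averaged over the 4 libraries. Thbd came first at 2.74, followed by Vwf at 1.57, Procr at 1.48, Icam1 at 1.22, F3 at 0.344, Plat at 0.198, Vcam1 at 0.175, Selp at 0.0698 and Sele at 0.00698. Thbd had 1.01 and 2.16 CPM per kilobase with diosmin and 3.10 and 4.67 in IVS, while Vwf had 1.15 and 2.12 with diosmin and 1.32 and 1.71 in IVS. By this length the 2 genes were near each other in the diosmin libraries, and Thbd was higher in both IVS libraries. Procr had 1.94 and 1.33 CPM per kilobase with diosmin and 1.29 and 1.36 in IVS. Within the groups the order differed from the pooled one: the means of Procr, Vwf and Thbd were 1.63, 1.63 and 1.59 with diosmin, and 1.33, 1.52 and 3.89 in IVS, where Icam1 averaged 1.57. Neighbours in this order from Thbd to Icam1 overlapped between libraries, as did neighbours from F3 to Selp. Measured against the longest annotated transcript instead, Vwf came first at 2.86 and Thbd second at 2.74. Vwf then had 2.09 and 3.85 with diosmin and 2.40 and 3.11 in IVS, while the values of Thbd were unchanged. By that length Vwf stood above Thbd in each diosmin library, and Thbd above Vwf in each IVS library.

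The ratio of Vwf to Thbd counts within a library was 4.88 and 4.22 with diosmin and 1.84 and 1.58 in IVS. Depth and scaling cancel in this ratio. The groups did not overlap, and the 2 libraries of each group were close, unlike the level of Vwf itself. Thbd counts enter both this ratio and the ratio to Procr, and the level of Thbd alone did not overlap between groups. The share of all genes whose ratio to Thbd separates the groups was not computed, so the order does not set Vwf apart. The pair was chosen after its values were seen, and no test was made. Both genes were lower in replicate 1 than in replicate 2 of their group, by 0.542 times for Vwf and 0.469 times for Thbd with diosmin, and 0.772 and 0.664 times in IVS.

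Markers of endothelium, the cell type that makes most of the members, were lower in the same diosmin libraries. All 15 pan-endothelial markers were tested and had lower values, and 7 fell, with a median log2 fold change of -0.88. Their summed level was 444 to 515 CPM with diosmin and 831 to 935 CPM in IVS. Of 12 capillary markers 10 fell, with a median of -1.33 and a summed level of 595 to 639 CPM with diosmin and 1523 to 1851 CPM in IVS. Venous markers, of which Vcam1, Selp and Vwf are members here, had a median of -0.44, with lower values in 6 of 8 tested, of which 1 fell (Nrp2, a neuropilin, log2 -1.54). Arterial markers had a median of -0.42, with lower values in 9 of 11 tested, of which 1 fell (Dll4, a Notch ligand, log2 -1.26). Nrp2 missed the threshold with any 1 library left out, as did Dll4. Without IVS_diosmin replicate 1, no marker of these 4 lists passed. The pan-endothelial count was 2 to 4, and the capillary count 4 to 7, without each other library. In bulk tissue, fewer endothelial cells and less RNA per cell cannot be told apart.

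The members were also divided by the summed pan-endothelial level of the same library, which was itself lower with diosmin. Per 1000 CPM of the 15 markers, Icam1 had 7.63 and 8.29 CPM with diosmin and 6.26 and 9.04 CPM in IVS, and the groups overlapped. Thbd had 7.33 and 18.1 CPM with diosmin and 13.9 and 18.6 CPM in IVS, which also overlapped. The other 5 tested members were higher on this scale in both IVS_diosmin libraries than in either IVS library, as were 75.5% of all genes tested, so this order does not set them apart. Over all genes tested the median log2 ratio on this scale was 0.89, against 0.06 for Icam1 and -0.35 for Thbd. On it 2.69% of all genes tested had both IVS_diosmin libraries below both IVS libraries. The overlap of Icam1 and Thbd therefore does not place them with most genes. Vwf had 35.8 and 76.6 CPM per 1000 with diosmin and 25.5 and 29.4 in IVS, Procr 7.63 and 6.10 with diosmin and 3.16 and 2.96 in IVS, and Vcam1 4.04 and 2.50 with diosmin and 1.79 and 1.65 in IVS. These ratios carry no test, and the members share 1 denominator in each library.

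**Figure D3:**
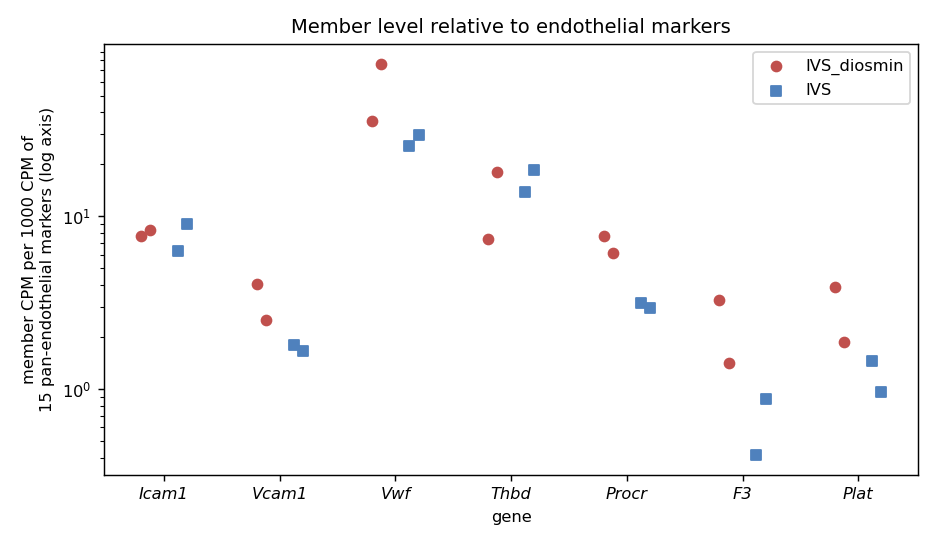
Level of each tested member per 1000 CPM of 15 summed pan-endothelial markers (vertical log axis) in the 2 IVS_diosmin libraries (red circles) and the 2 IVS libraries (blue squares). Thbd and Icam1 overlap between groups on this scale, while Vwf, with 35.8 and 76.6 against 25.5 and 29.4, and the remaining 4 genes lie higher with diosmin, as do 75.5% of all genes tested; the shared denominator was 444 to 515 CPM with diosmin and 831 to 935 CPM in IVS.

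Partners of the adhesion molecules on the other side of the contact were tested for 6 of 12 genes, all with lower values (median log2 fold change -0.73), of which 2 fell. Podxl, a sialomucin of endothelium that selectins can bind, fell by 1.57 on the log2 scale to 15.4 CPM with diosmin, against 45.5 CPM in IVS (adjusted p = 0.00946, edgeR; 0.0757 without IVS_diosmin replicate 1). Itgb1, the beta-1 integrin chain that many cells carry, fell (log2 -0.99, adjusted p = 0.0233) and passed again only without IVS replicate 1 (0.0345). The leukocyte genes Itgal, Itgam, Itgb2, Selplg and Spn had too few counts to be tested. Of 10 neutrophil markers, 9 were at 0 in every library. The other, Mmp9, had 2 and 4 counts with diosmin and 16 and 18 in IVS (log2 -2.39, adjusted p = 0.208, edgeR). Of 12 lymphocyte markers 1 was tested, Cd3e, and the list summed to 2.99 to 3.78 CPM with diosmin and 2.17 to 2.36 CPM in IVS. Cd3e alone overlapped between groups, at 3.01 and 1.46 CPM with diosmin and 1.54 and 0.731 CPM in IVS. Macrophage markers summed to 36.5 and 55.4 CPM with diosmin and 33.0 and 69.5 CPM in IVS, with 0 of 10 past the threshold by edgeR, DESeq2 or limma-voom, 0 at an unadjusted p under 0.05 and a median of -0.29. Genes that make selectin ligands or release granules had a median of -0.38, with 0 of 9 past the threshold by any of these tools and 4 at an unadjusted p under 0.05, of which Cd63, a granule membrane protein, had the smallest (log2 -0.67, adjusted p = 0.116).

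Of the other adhesion genes of endothelium 9 were tested, 8 had lower values and 4 fell, with a median of -0.70. The lists share genes, so their counts are not separate. Among these 4, Pecam1 is also a pan-endothelial marker and Cd34 is also counted with the fibro-adipogenic progenitor markers. Kdr, which fell, is in both the pan-endothelial and the capillary list. Jam2, a junction adhesion molecule, had 11.8 CPM with diosmin and 39.4 CPM in IVS (log2 -1.73 ± 0.22 SE, adjusted p = 0.00269, edgeR), and missed the threshold without IVS_diosmin replicate 1 (0.0719). F11r, the junction molecule JAM-A, fell by 1.39 and missed the threshold with any 1 library left out (0.0603 to 0.176), and Pecam1, the platelet and endothelial adhesion molecule, fell by 1.04. Pecam1 passed without IVS replicate 1 and missed without each other library (0.0553 to 0.185).

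Genes of the clotting and fibrinolysis systems beyond the members mostly missed the adjusted threshold by edgeR. Of 16 coagulation factors and thrombin receptors, 3 were tested and none passed by edgeR, DESeq2 or limma-voom, nor stood at an unadjusted p under 0.05. F2r, the thrombin receptor PAR1, had the smallest p (log2 -0.90, edgeR adjusted p = 0.409), and factors that the liver makes were at or near 0 counts. Of the 16 genes 6 were at 0 in every library, among them F2rl2, which is a receptor gene and not a liver factor. Of 8 natural anticoagulants tested none passed by edgeR or limma-voom and 1 did by DESeq2, with 2 at an unadjusted p under 0.05 and a median of -0.36. Anxa5, a phospholipid-binding annexin, came nearest (log2 -0.96 ± 0.24 SE, adjusted p = 0.0566), followed by Serpine2, a thrombin and plasminogen activator inhibitor of the fibrinolysis list (-0.90, adjusted p = 0.0581). In that list 4 of 8 tested genes stood at an unadjusted p under 0.05, where 16.8% of all genes tested stood. DESeq2 called 3 of them and limma-voom 1. By edgeR 7 of the 8 had lower values and 1 fell: Anxa2, which docks Plat and plasminogen at the cell surface with S100a10. Anxa2 was at 14.7 and 14.9 CPM with diosmin and 26.5 and 36.8 CPM in IVS (log2 -1.09 ± 0.23 SE, adjusted p = 0.0282, edgeR), and passed again only without IVS replicate 1 (0.0177). Its partner S100a10 had 15.6 and 14.6 CPM with diosmin and 23.2 and 49.6 CPM in IVS, and did not pass (log2 -1.26, adjusted p = 0.077).

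Among regulators of the members, flow-responsive and endothelial transcription genes were lower. Of 12 tested 11 had lower values and 4 fell, with a median of -1.17. Klf2, a shear-responsive factor known to induce Thbd in endothelium, was at 34.8 and 36.4 CPM with diosmin and 76.4 and 104 CPM in IVS (log2 -1.34 ± 0.22 SE, adjusted p = 0.00766, edgeR). Its groups did not overlap, an order that 24.1% of all genes tested shared. Klf2 missed the threshold without IVS_diosmin replicate 1 (log2 -1.31) and without IVS replicate 2 (log2 -1.11). Klf4, a close relative of Klf2, fell by 1.86 and passed again only without IVS replicate 1. Erg, an ETS factor that keeps endothelium quiescent, fell by 1.28, and Sox18 by 1.62. Erg passed without IVS_diosmin replicate 2 and without IVS replicate 1, and Sox18 only without IVS replicate 1. NF-kB and its cytokine inputs induce Icam1, Vcam1 and Sele, but their list here also holds inhibitors such as Nfkbia and targets such as Cxcl1. A lower value in it is therefore not always a lower inducer. Of its 15 tested genes none passed by edgeR, DESeq2 or limma-voom. Among them 4 stood at an unadjusted p under 0.05, 12 had lower values and the median was -0.44. Cxcl1, a chemokine that endothelium makes on NF-kB activation, had 0 counts in both IVS_diosmin libraries and 11 and 10 in the IVS libraries (adjusted p = 0.0998), and Il1r1, the interleukin-1 receptor, was at -0.99 on the log2 scale (adjusted p = 0.115). Tnf, Il1b, Il6 and Ccl2 had too few counts to be tested.

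Other cells that make the members were read from their own markers. Platelet markers, relevant to Vwf and Selp, had 4 of 12 at 0 in every library and 4 tested, none past the threshold by edgeR, DESeq2 or limma-voom nor at an unadjusted p under 0.05, with summed levels of 7.25 and 10.3 CPM with diosmin and 5.37 and 9.26 CPM in IVS. In both groups these sums were higher in replicate 2, as were Vwf, Thbd and the summed macrophage markers. Of the 4 tested, Gp1ba alone went the other way, with 1.54 and 0.694 CPM with diosmin and 0.972 and 0.650 CPM in IVS. The part of platelets in the Vwf values was not tested. Satellite cell markers, among them Vcam1, had 0 of 10 past the threshold by these tools, with 2 at an unadjusted p under 0.05 (median -0.04). Of 12 fibro-adipogenic progenitor markers, a list that includes Procr, 1 fell (Cd34, log2 -1.05, which endothelium also makes and which passed again only without IVS replicate 1) and the median was 0.08. Smooth muscle and pericyte markers had a median of 0.29, with higher values in 7 of 11 tested, of which 1 rose (Des, log2 0.88, also a muscle fibre gene, which missed with any 1 library left out).

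The 5 genes whose pattern over the 4 libraries was most like that of Thbd were Gm5776, Tlnrd1, Ces1d, Plcb1 and Wasf3. Their centred log2(CPM + 0.5) values lay 0.0226 to 0.0929 from those of Thbd (root mean square difference). Ces1d had 11.5 and 24.6 CPM with diosmin and 34.4 and 47.0 CPM in IVS. With 4 libraries in 2 groups, many genes can share such an order, and none of the 5 passed the threshold.

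Signs of RNA composition also moved with the groups. The rRNA gene CT010467.1 took 1.16% and 0.936% of gene counts with diosmin and 4.14% and 3.80% in IVS, and Rn7sk, a small nuclear RNA without a poly(A) tail, was at 11.9 and 5.97 CPM with diosmin and 34.6 and 33.5 CPM in IVS. Mitochondrially encoded genes took 45.0% and 40.7% of counts with diosmin and 31.5% and 38.5% in IVS. The 5 slow fibre markers Myh7, Tnnt1, Tnni1, Tnnc1 and Atp2a2 rose in the same libraries, with Tnnt1, slow troponin T, at 551 and 274 CPM with diosmin and 6.80 and 8.69 CPM in IVS (adjusted p = 0.000408, edgeR). The part of these in the values of Thbd and Icam1 was not tested.

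**Figure D4:**
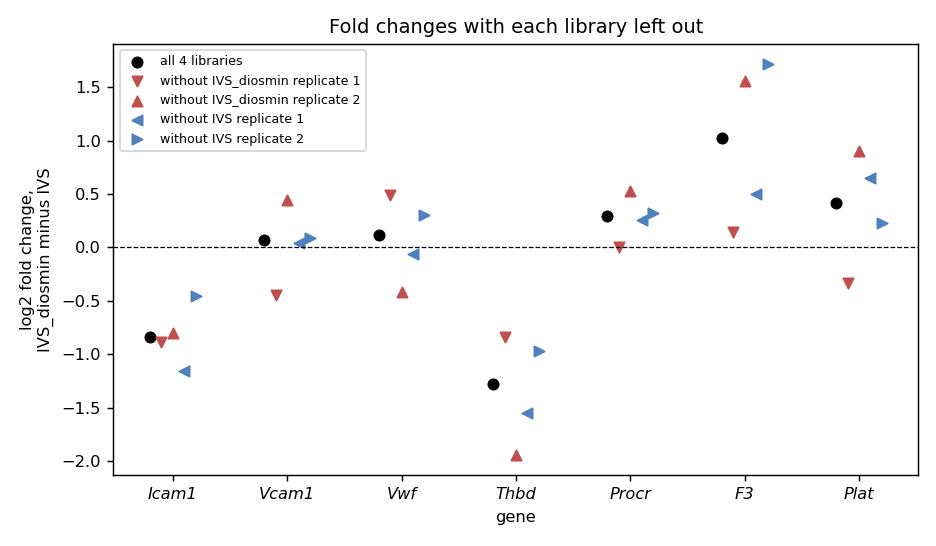
Log2 fold change (vertical axis, IVS_diosmin minus IVS) of each tested member with all 4 libraries (black) and with each library left out (red triangles for IVS_diosmin, blue for IVS). Thbd, at -1.94 to -0.84, and Icam1, at -1.15 to -0.46, stay below 0; Vwf, Vcam1 and Plat lie on both sides.

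Across the fits that left out 1 library, the members fell into 3 groups. Thbd and Icam1 kept lower values with diosmin every time, F3 and Procr kept higher ones, and Vwf, Vcam1 and Plat changed direction at least once. F3 ran from 0.14 to 1.72 and Procr from 0.01 to 0.53. A lone library in such a fit was assumed to vary like the other group. For a single gene, exact permutation of 2 against 2 libraries cannot give a p below 0.333, so the tests above borrow the spread from all genes.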

How the data were processed

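Poly(A)-selected RNA of semimembranosus muscle was made into 4 libraries with a NEBNext Ultra kit that is not described as keeping strand, per the labels' protocols. Each library's deposited file holds unnormalised read counts by gene and ends with HTSeq's summary lines. The submitters' processing notes name HISAT2 2.1.0, HTSeq and mm10. Not given in the sources used here are the annotation release, the strand setting and any filter. The 5 summary lines, which name no gene, held 72.3% to 75.1% of each file's reads and were left out throughout. Reads aligned to more than 1 place are among them.

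Symbols, positions and exon lengths came from GENCODE M21 (mm10), which matched 55141 of 55401 identifiers. Counts were filtered with filterByExpr, scaled by TMM and tested with edgeR 4.0.16 (quasi-likelihood, robust, 2-sided, Benjamini-Hochberg over all 13533 genes; R 4.3.3). Intervals of log2 fold changes use the fit's degrees of freedom. DESeq2 1.42.0, limma-voom (limma 3.58.1), other scalings and filters, a replicate block and leaving out each library were alternatives. Intervals for ratios of counts are exact conditional (Clopper-Pearson) and, like the limits drawn from counts of 0, cover counting error only. Promoters are RefSeq's on GRCm38.p6.

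The members and the gene lists were chosen with earlier results of these data known. All 9 members are named; from each list, genes past the threshold (at most 4, by p) or else the 1 or 2 of smallest p, and in cell type lists the most abundant.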

Additional observations from a re-analysis of the deposited data

How the results depend on the processing

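Across the 12 alternatives, no member but Thbd passed the threshold. Thbd passed with library totals as the only scaling (log2 fold change -1.36, adjusted p = 0.0453), with no filter on low counts (-1.29, adjusted p = 0.00184) and without IVS_diosmin replicate 2 (-1.94), which made the number of members past the threshold 1 in each; the cause was not tested. Without 1 library in turn that number ran from 0 to 1 and the log2 fold change of Thbd from -1.94 to -0.84. Library totals moved the median of all genes from 0.01 to -0.11, and Thbd then lay at -1.25 relative to it. The direction turned for Vcam1 with library totals (-0.054) and limma-voom (-0.010) and without IVS_diosmin replicate 1 (range -0.44 to 0.44 over the libraries left out), for Vwf without 1 library (-0.41 to 0.49) and for Plat (-0.33 to 0.90). Genes past the threshold numbered 400 (159 higher, 241 lower), 919 with no filter (394 and 525), 606 with DESeq2 (259 higher) and 93 with the replicate block (44 and 49). Leaving out 1 library gave 38 to 366 genes, 27 to 140 higher and 11 to 257 lower. The replicate block changed no member's call (Thbd -1.35, adjusted p = 0.114, edgeR). Deviations of same-numbered libraries correlated at r = -0.0014 over 13533 genes. With 2 libraries per group, this value cannot decide whether libraries were paired. Per endothelial marker CPM, the log2 ratio of Icam1 was 0.06 with the 15 markers, 0.36 with Pecam1 and Cdh5 and 0.63 with capillary markers. For Thbd the ratio was -0.35, -0.08 and 0.16, so its direction turned with capillary markers. For Procr it was 1.17, 1.49 and 1.75, for Vcam1 0.93 and, with capillary markers, 1.53, and for Plat 1.26 and 1.88. The median over all genes tested is given here for the 15 markers only (0.89). By longest transcript, the place in the order of levels was 1 for Vwf, 2 for Thbd, 3 for Icam1, 4 for Procr, 6 for Vcam1 and 7 for Plat. With 6 to 27 counts per library for F3, Plat and Vcam1, changes smaller than their intervals could not be seen at this depth.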
